A study of Mus musculus with 8 samples.

Results

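Gene expression on the injured and the contralateral side of mouse lumbar dorsal root ganglia was compared 1 day after the left L4 spinal nerve was tied. The comparison rests on 2 of the 8 RNA sequencing libraries of the study, 1 of each side, and covers the 13276 of 53801 counted genes that had at least 50 reads in the higher of both libraries. Per the labels, each library held RNA from ganglia L3 to L5 of 3 pooled male C57BL/6J mice, and both day 1 libraries came from the same mice. All these mice had isoflurane anaesthesia, a midline skin incision, removal of the left L5 transverse process and a lidocaine and bupivacaine mix in the muscle. In the injured-side library 2 of the ganglia of each mouse had a nerve that was not tied, so changes in the L4 ganglion are diluted in it. Pools of days 3 and 7 were made alike. From a pool labelled no injury there is 1 library of the left and 1 of the right side, and their ratio served as the background of a side ratio. The sources used here do not say whether that pool was the day 0 or the sham-operated group of the protocol, and "without injury" stands for its label only. Gene reads per library totalled 20488115 on the injured and 21294939 on the contralateral side, and a gene without reads could still have had up to 3, or 0.149 and 0.141 CPM, the read count scaled to library size.

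Sensory neurons have their cell bodies in the dorsal root ganglia, each wrapped by satellite glia, among Schwann cells, vessels, fibroblasts and resident macrophages. When the peripheral axon is cut off, the neuron first switches on transcription factors such as Atf3, Jun and Sox11, later growth-associated genes and neuropeptides, while genes of normal sensing and firing decline over days. Glia and macrophages respond in turn, the macrophages by growing in number over several days. In bulk libraries fewer cells of a type and less RNA per cell cannot be told apart.

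Markers of sensory neurons, satellite glia and myelinating Schwann cells were present in both libraries, as the label of the tissue requires, with the nociceptor sodium channel gene Scn10a at 912 CPM on the injured and 943 CPM on the contralateral side. The sex in the labels held for the day 1 libraries: the X inactivation gene Xist had 1 and 2 reads, and Y-linked Kdm5d stood at 14.9 and 15 CPM. It did not hold for the pool labelled no injury, with Xist at 236 and 192 CPM and no Kdm5d reads, so the 2 pools differ in sex as well as in their labelled injury. Both day 1 libraries also stood apart in other cells. The contralateral one was high in blood and marrow genes, with a summed level of the mature neutrophil list of 559 CPM against 39.6 CPM on the injured side, and between 60.8 and 310.4 CPM in the 6 other libraries. The injured one was low in genes of dividing cells. Each ratio at least 2-fold below 0 was therefore set against the other libraries of unligated sides before it was described. Smaller falls were not sorted by this rule.

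Of 13276 genes, 121 (0.911%) were 2-fold or more up on the injured side at day 1 and 201 (1.51%) were 2-fold or more down, on the log2 CPM scale with a prior count of 2. Left over right without injury, 53 genes (0.402% of 13192) and 65 genes (0.493%) were 2-fold apart. Predicted genes and pseudogenes made up 6 and 11 of the day 1 genes. The median log2 ratio over all genes was 0.02 with an interquartile range of 0.273, against -0.004 and 0.169 for the same genes without injury. The 2-fold limit cut through a continuous range, with Oasl1 (1.02) and Srd5a2 (1.01) just inside and Irf7 (0.98) and Cxcl14 (0.97) just outside. The limit on reads left in 28 genes with 50 reads and left out 34 with 49. Among the 4823 genes with at least 1000 reads, whose counting error is small, 17 were 2-fold higher and 10 lower, and without injury 4 and 0. These counts have no replicate check.

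**Figure D1:**
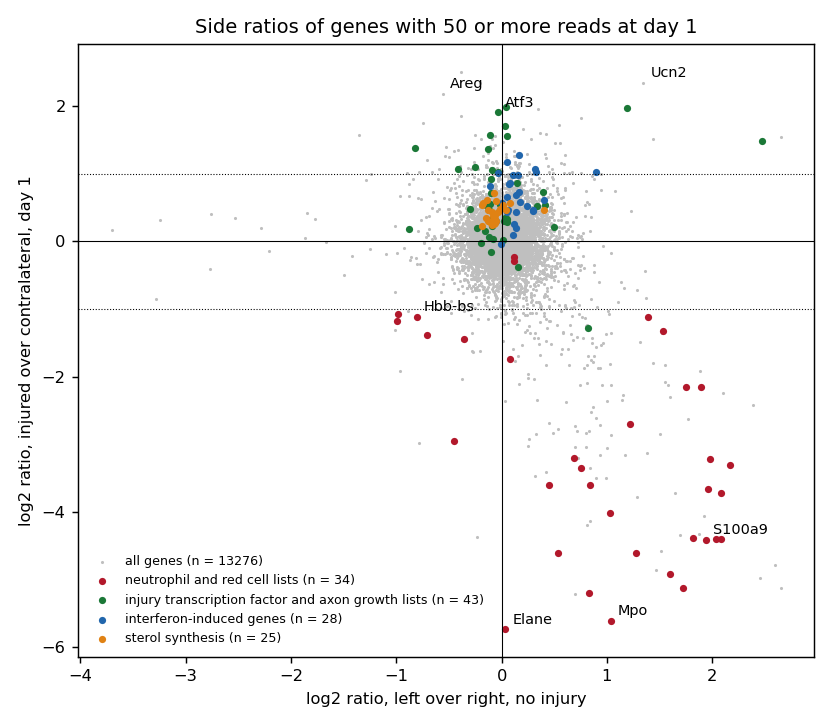
Each point is a gene with at least 50 reads at day 1; the horizontal axis is the log2 ratio of left over right without injury and the vertical axis the log2 ratio of injured over contralateral at day 1, with dotted lines at 2-fold and colours for gene lists. Neutrophil and red cell genes reach down to -5.74 (Elane), while injury, interferon and sterol genes lie mostly above 0 and Atf3 at 1.91.

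The higher and the lower genes differed in kind. Each day 1 library was set against the median of the 4 other libraries from sides without ligation. Of the 121 higher genes, 63 stood high in the injured library alone, 12 stood low in the contralateral library alone and 46 met neither description. Of the 201 lower genes, 78 stood high in the contralateral library alone, 28 low in the injured library alone and 95 met neither description. The contralateral library was the highest of all 8 for 124 of the lower genes, and at least 2-fold above each other library for 41. The injured library was the lowest of all 8 for 108, and 56 of these genes had both. Of the higher genes 110 kept their sign at days 3 and 7, whereas of the lower genes 29 kept it and 122 had the opposite sign at both days. Set against the mean of the contralateral libraries of days 3 and 7 instead, 70 of 121 and 48 of 201 were still 2-fold apart the same way. For 76 of the higher genes the contralateral day 1 library lay above both libraries labelled no injury.

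A test was possible only with the spread borrowed from the other pools. Across 17286 genes, edgeR's quasi-likelihood test with the pool as a block called 220 genes higher (1.27%) and 120 lower (0.694%) at day 1, against 1377 and 995 at an unadjusted p under 0.05. The lone day 1 pair is assumed there to vary like the other pools, and 2 residual degrees of freedom remain. They come from the left-right difference of the pool labelled no injury and from the difference between days 3 and 7. A change between those days therefore counts as spread, as for Sprr1a with log2 ratios of 1.82 and 2.81. The absence of a call is then no evidence that day 1 lacked a difference. The calls lean on the pool labelled no injury: leaving it out gave 28 higher and 22 lower genes, leaving out day 3 gave 646 and 369, and leaving out day 7 gave 629 and 353. With the contralateral day 1 library left out and days 3 and 7 as the reference, 656 were higher and 341 lower, and these held 174 of the 220 and 58 of the 120 calls. Of 70 side calls of genes named in the text 51 were lost without the pool labelled no injury. Of the genes 2-fold apart, 45 higher and 52 lower ones were called. For 63 of the 120 lower calls the contralateral day 1 library was the highest of all 8. In what follows, rose and fell stand for these calls, and each log2 value given with ± is the fitted side difference with its SE.

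Transcription factors of the injury response were higher on the injured side, 7 of 22 by the test, against 1.27% of all tested genes. Atf3 (chromosome 1, 191170296 to 191218039, GRCm38), the stress-induced factor that marks axotomised neurons, stood at 473 CPM on the injured and 126 CPM on the contralateral side. It had reached 614 and 170 CPM at day 3 and 612 and 110 CPM at day 7, and was at 10.8 and 11.1 CPM without injury. The injured level of day 1 lay below those of days 3 and 7, and the contralateral side lay above the uninjured libraries at each day. The ratio was 3.77-fold (log2 1.91, 95% interval of the read split 1.85 to 1.98, counting error only), and edgeR gave 1.92 ± 0.22 with an adjusted p = 0.0253. Jun, the partner of such factors, stood at 307 against 150 CPM, with 267 and 146 CPM at day 3, 271 and 122 CPM at day 7, and 110 and 112 CPM without injury. Its injured day 1 level was the highest of all libraries, and it rose by 1.04 ± 0.11 (edgeR adjusted p = 0.00308). Sox11, a developmental transcription factor that regenerating neurons switch on again, stood at 46.0 against 17.8 CPM and rose by 1.38 ± 0.18 (edgeR adjusted p = 0.0126).

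Of the 21 listed injury transcription factors with enough reads, 19 had a ratio above 0, 5 of them by 2-fold, and none was 2-fold lower. The list's median log2 ratio was 0.55, against 0.02 over all genes and -0.02 for the list without injury. With Cebpd (25.6 against 11.9 CPM), Klf6, Smad1 and Nfil3, 7 of 22 tested members rose and 0 fell. Fosl1, at 2.94 against 0.986 CPM, was the other member 2-fold higher, and its ratio of 1.49 lay below the 2.47 between the libraries labelled no injury. The medians at days 3 and 7 were 0.75 and 0.59.

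Atf3, Sox11 and Jun are shown as the factors described above, and the 200 bases upstream of their starts show the DNA that such factors could read. The sequences are RefSeq's for GRCm38.p6, written 5′ to 3′ on the strand of the gene: Atf3 at chr1:191183334-191183533 on the minus strand, Sox11 at chr12:27342719-27342918 on the minus strand and Jun at chr4:95052223-95052422 on the minus strand. Of 21 list members 16 had a promoter in the table. The letters TGACGTCA (the cyclic AMP response element) and TGANTCA (the AP-1 site) were searched on both strands of the 250 upstream bases. Each was found in 1 of the 16 (6.25%), Creb5, against 1.77% and 7.82% of all 27025 genes. No match in these windows says only that those letters are not there.
Atf3: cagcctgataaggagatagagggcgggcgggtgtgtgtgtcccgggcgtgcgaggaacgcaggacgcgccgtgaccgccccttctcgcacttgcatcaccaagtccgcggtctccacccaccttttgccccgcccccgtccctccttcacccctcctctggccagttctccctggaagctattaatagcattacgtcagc
Sox11: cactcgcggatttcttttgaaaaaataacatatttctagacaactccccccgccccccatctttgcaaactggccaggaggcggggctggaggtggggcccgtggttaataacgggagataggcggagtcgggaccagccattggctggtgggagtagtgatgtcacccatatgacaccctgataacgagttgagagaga
Jun: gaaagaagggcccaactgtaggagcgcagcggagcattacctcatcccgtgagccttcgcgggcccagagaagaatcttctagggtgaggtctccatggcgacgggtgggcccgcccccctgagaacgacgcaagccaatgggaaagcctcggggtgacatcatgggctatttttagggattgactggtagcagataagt

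**Figure D2:**
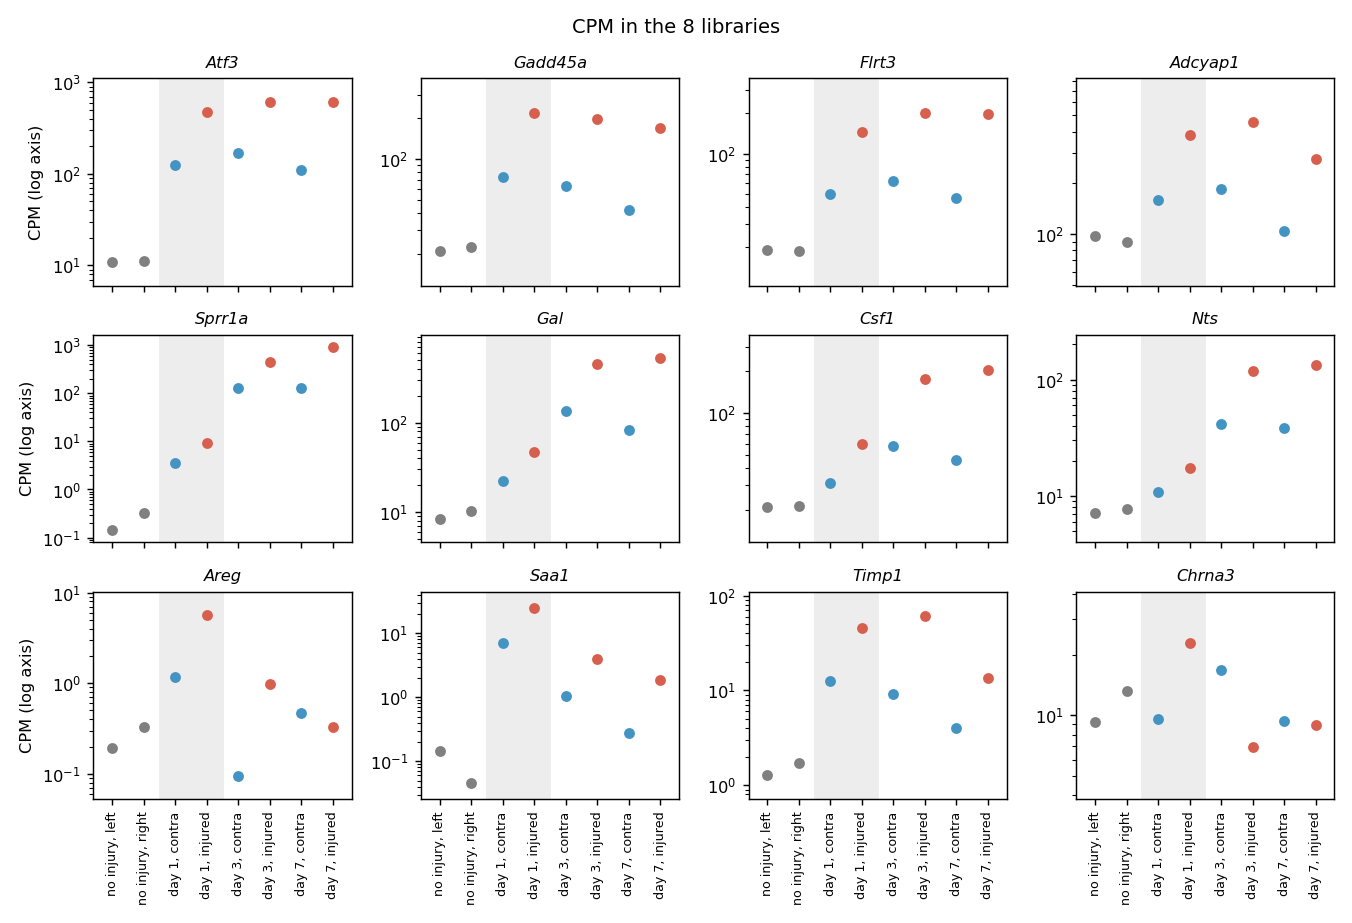
Each panel gives the CPM of a gene on a log axis in the 8 libraries, grey for no injury, blue for the contralateral and red for the injured side, with day 1 shaded. Atf3, Gadd45a and Flrt3 are high on the injured side from day 1, Sprr1a, Gal, Csf1 and Nts are higher at days 3 and 7, and Areg and Saa1 have their highest level in the injured day 1 library.

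Among 22 genes that carry out the growth response 6 rose at day 1, against 1.27% of all tested genes. By the test against days 3 and 7, 0 were called lower and 1, Nptx1, higher. The log2 ratios of Nptx1 were below 0 throughout, at -0.16, -0.83 and -0.69 at days 1, 3 and 7. The growth-arrest gene Gadd45a stood at 220 CPM on the injured side and 73.8 CPM on the contralateral side at day 1, and at 198 and 63.9, then 171 and 42.2 CPM at days 3 and 7. It was at 20.9 and 22.5 CPM without injury, so its injured level was highest at day 1, and it rose by 1.58 ± 0.13 (edgeR adjusted p = 0.00192). Flrt3, a membrane protein of axon guidance, stood at 146 against 49.6 CPM and rose by 1.56 ± 0.13 (edgeR adjusted p = 0.00192). Stmn4, a regulator of microtubules, stood at 51.0 against 24.5 CPM and rose by 1.06 ± 0.14, and Itga7, a laminin receptor subunit, at 543 against 285 CPM rose by 0.93. Sprr1a, a growth-associated protein, was still scarce. It stood at 9.31 and 3.52 CPM at day 1, 455 and 128 CPM at day 3, 906 and 130 CPM at day 7, and 0.144 and 0.326 CPM without injury. Its ratio of 2.6-fold was not called (edgeR adjusted p = 0.62). Gap43, a protein of growing axon tips, stood at 235 against 200 CPM at day 1 and at 790 against 295 CPM at day 7.

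Of 22 growth and injury effectors 20 stood above 0, 8 by 2-fold and 1, Anxa1, 2-fold lower, and 6 rose. The median was 0.47 at day 1 and 1.01 and 1.18 at days 3 and 7. Against the contralateral libraries of days 3 and 7 the median was 0.05 at day 1. Ecel1, a protease of injured neurons, is an example: at 8.32 against 2.49 CPM it rose by 1.75 ± 0.29 (edgeR adjusted p = 0.0321), and the contralateral libraries of days 3 and 7 held 17.6 and 21.7 CPM. With the contralateral day 1 library replaced by those libraries, the ratios of Ecel1, Sprr1a and Gal were -1.22, -3.78 and -1.17. Crocc2, a ciliary rootlet gene, had the highest ratio when predicted genes are left aside, level with Ucn2 (log2 2.35 for both). At 2.54 against 0.422 CPM (51 and 9 reads) Crocc2 rose by 2.58 ± 0.52 (edgeR adjusted p = 0.0362). Star, which feeds cholesterol into steroid synthesis, stood at 25.8 against 7.75 CPM and rose by 1.74 ± 0.17, and Procr, the protein C receptor, at 21.6 against 7.04 CPM rose by 1.62 ± 0.21 (edgeR adjusted p = 0.00192 and 0.00701).

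Neuropeptide genes included 2 that rose. Adcyap1, which encodes PACAP, stood at 384 against 159 CPM at day 1, 458 against 185 CPM at day 3, 275 against 104 CPM at day 7, and 96.9 and 89.3 CPM without injury. Both sides stood above the uninjured libraries at day 1, the injured side further, and Adcyap1 rose by 1.28 ± 0.10 (edgeR adjusted p = 0.00192). Galanin (Gal), an inhibitory peptide of injured neurons, was at 47.3 against 22.1 CPM at day 1 and 454 against 136 CPM at day 3, with 531 against 83.2 CPM at day 7 and 8.28 and 10.3 CPM without injury. Its day 1 ratio of 2.13-fold was not called (edgeR adjusted p = 0.53), and neuropeptide Y (Npy) had only 26 and 19 reads. Neurotensin (Nts) rose by 0.68 ± 0.14 at day 1, and less than at days 3 and 7 (difference -0.996 ± 0.17, edgeR adjusted p = 0.0296). Without the contralateral day 1 library its value was -1.18, since the contralateral side held 41.2 and 38.2 CPM later. Ucn2, a corticotropin-releasing family peptide (chromosome 9, 108986010 to 108987164), had 75 and 14 reads, or 3.74 and 0.657 CPM. That made 5.09-fold, with a read-split interval of 1.67 to 3.45 on the log2 scale and no call (edgeR adjusted p = 0.0585), and without injury the left library also held more (0.383 against 0.0931 CPM). Of 11 neuropeptide genes 9 stood above 0, 3 by 2-fold, with a median of 0.45. Of 15 tested 2 rose, against 1.27% of all tested genes.

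Cytokines and receptors of the interleukin 6 family, which drive Stat3 in injured neurons, were represented by scarce ligands. Il6 stood at 3.64 against 1.17 CPM and Clcf1 at 5.98 against 2.11 CPM, and neither was called. Socs3, the inhibitor that the pathway switches on, stood at 51.1 against 22.4 CPM at day 1, 44.6 against 16.6 CPM at day 3, 31.6 against 14.3 CPM at day 7, and 11.4 and 11.9 CPM without injury. Its highest level was in the injured day 1 library, and it rose by 1.19 ± 0.13 (edgeR adjusted p = 0.00308). Of 14 family genes 4 were 2-fold higher and none lower, with a median of 0.28. Among 17 tested 1 rose, against 1.27% of all tested genes. Areg, a ligand of the EGF receptor, stood at 5.68 against 1.17 CPM at day 1, 0.969 against 0.0952 CPM at day 3, 0.328 against 0.469 CPM at day 7, and 0.192 and 0.326 CPM without injury. It was high in the day 1 pool on both sides and higher on the injured one (4.55-fold, 114 and 25 reads, edgeR adjusted p = 0.192). In the EGF and ErbB list 7 of 9 genes stood above 0 and 0 of 11 were called. Csf1, the macrophage growth factor, was at 59.3 against 31.2 CPM and not called (edgeR adjusted p = 0.0974). Of 9 TNF receptor family genes 7 stood above 0 with a median of 0.20. Tnfrsf12a, the receptor of the cytokine TWEAK, alone rose, by 1.44 ± 0.17, at 29.4 against 10.8 CPM.

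Acute phase and wound proteins included several whose highest levels were at day 1. Saa1, a serum amyloid protein (chromosome 7, 46740497 to 46742980), stood at 24.9 against 6.95 CPM at day 1, 3.92 against 1.05 CPM at day 3, 1.88 against 0.282 CPM at day 7, and 0.144 and 0.0465 CPM without injury. Both day 1 libraries lay above all others, the injured one 3.54-fold above the contralateral one, and Saa1 rose by 1.84 ± 0.27 (edgeR adjusted p = 0.0126). Saa2 and Saa3 followed at 5.78 against 1.41 and 4.43 against 2.11 CPM without a call. Saa1 and Saa2 are near-identical, and reads could be split between this pair. Timp1, an inhibitor of matrix proteases, stood at 46.0 against 12.6 CPM at day 1 and 1.29 and 1.72 CPM without injury (edgeR adjusted p = 0.0822). Its injured level was higher at day 3, at 61.2 against 9.14 CPM. Plaur, the receptor of urokinase, stood at 38.7 against 17.7 CPM at day 1 and 39.6 against 14.7 CPM at day 3, and rose by 1.13 ± 0.13. Serpina3n, a protease inhibitor, at 736 against 454 CPM rose by 0.70, and was at 153 and 169 CPM without injury. Of the 20 genes of this list 7 were 2-fold higher and 3, Lcn2, Mmp9 and Hp, 2-fold lower. Of 24 tested 4 rose, against 1.27% of all tested genes, and 0 fell. All 3 lower genes were highest in the contralateral day 1 library, and against the contralateral libraries of days 3 and 7 the ratio turned for Lcn2 (1.05) and Hp (1.17). Lcn2 and Mmp9 are also in the mature neutrophil list, whose summed level was 39.6 CPM on the injured and 559 CPM on the contralateral side, and its part in these ratios was not tested.

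The list of immediate early genes, which respond within minutes to stimuli, had 16 of 17 members above 0 and 3 above 2-fold, with a median of 0.53. Beside Jun only Dusp1, a phosphatase that ends kinase signals, was called, at 34.4 against 23.8 CPM. Of 17 genes of p53 and growth arrest 16 stood above 0, with a median of 0.20. There Gadd45a, Gadd45g and Cdkn1a rose, Cdkn1a at 186 against 117 CPM by 0.67 ± 0.11, which was less than at days 3 and 7 (difference -0.68 ± 0.14, edgeR adjusted p = 0.049). Genes induced by glucocorticoids, the steroid hormones of the stress response, had 8 of 16 members above 0 and a median of 0.07, and 2, Dusp1 and Cdkn1a, rose. Their summed level was 908 CPM on the injured and 830.5 CPM on the contralateral side, 1055 and 769 CPM at day 3, 933 and 737 CPM at day 7, and 566.5 and 559.5 CPM without injury.

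Interferon-induced genes, which code for antiviral proteins, formed a broad and moderate difference. Of 28 genes 27 stood above 0, all but Ifit3b (-0.03), and 6 by 2-fold, with a median of 0.63 against 0.02 over all genes, 0.13 for the list without injury, and 0.53 and 0.23 at days 3 and 7. The injured day 1 library was the highest of all 8 for 12 of them. Summed, the list stood at 756 CPM on the injured and 468 CPM on the contralateral side, and at 653 CPM or less in the 6 other libraries. Ifit1 (chromosome 19, 34640871 to 34650009) stood at 87.5 against 38.5 CPM at day 1, 57.0 against 31.2 CPM at day 3, 34.9 against 28.8 CPM at day 7, and 21.7 and 20.9 CPM without injury. Its level was highest in the injured day 1 library, 2.27-fold above the contralateral one, and it rose by 1.19 ± 0.18 (edgeR adjusted p = 0.0282). Usp18, which restrains the interferon receptor, was at 8.32 against 3.38 CPM and passed narrowly (edgeR adjusted p = 0.0497). Stat2 and Irf7, transcription factors of the pathway, stood at 164 against 92.8 and 12.4 against 6.20 CPM and rose by 0.83 and 1.00, and Oasl2 at 89.4 against 49.2 CPM rose by 0.87. With Gbp3, 6 of 33 tested members rose, against 1.27% of all tested genes, and 0 fell. No member differed from days 3 and 7 by the test. Ifit3 and Ifit3b are near copies, so their split is uncertain.

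The promoters of the 2-fold higher members are shown because the interferon response element is a known short motif. Of 28 genes 20 had a RefSeq promoter (GRCm38.p6) and 10 of these (50%) held GAAANNGAA on either strand within 250 upstream bases, against 8.18% of all 27025 genes. Ifit1 at chr19:34640689-34640888 on the plus strand held it 109, 103 and 84 bases upstream of its start, Gbp2 at chr3:142620463-142620662 (plus) 58 bases upstream, and Gbp3 at chr3:142559844-142560043 (plus, 1 of 2 starts) 44 and 38 bases upstream. Oasl1 at chr5:114923040-114923239 (plus) held none. Usp18 and Mx1, the other 2-fold higher members, are named only. Capitals mark the matches, which lie on the minus strand relative to these genes, and overlapping matches run together. A match is a description of letters and shows no binding.
Ifit1: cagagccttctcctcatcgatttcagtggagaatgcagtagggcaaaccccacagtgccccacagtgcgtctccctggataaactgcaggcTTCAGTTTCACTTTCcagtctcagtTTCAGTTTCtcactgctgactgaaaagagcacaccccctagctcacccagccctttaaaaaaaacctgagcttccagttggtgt
Gbp2: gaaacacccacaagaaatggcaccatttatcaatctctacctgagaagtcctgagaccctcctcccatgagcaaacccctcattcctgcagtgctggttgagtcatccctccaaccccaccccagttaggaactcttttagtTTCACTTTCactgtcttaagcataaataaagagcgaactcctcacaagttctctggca
Gbp3: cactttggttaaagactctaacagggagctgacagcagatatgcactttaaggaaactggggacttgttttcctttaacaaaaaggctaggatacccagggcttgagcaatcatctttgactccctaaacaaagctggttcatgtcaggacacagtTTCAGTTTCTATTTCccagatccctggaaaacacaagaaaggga
Oasl1: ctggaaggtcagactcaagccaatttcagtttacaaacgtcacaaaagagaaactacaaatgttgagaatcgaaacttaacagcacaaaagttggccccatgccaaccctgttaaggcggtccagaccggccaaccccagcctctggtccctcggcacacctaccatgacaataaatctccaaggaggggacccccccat

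Genes of sterol synthesis differed by a small and even amount. Of 25 genes all 25 stood above 0, between 0.23 and 0.71, with a median of 0.44, against -0.07 without injury and -0.05 and 0.04 at days 3 and 7, and none reached 2-fold. The injured day 1 library was the highest of all 8 for 22 of them, the exceptions being Hsd17b7, Hmgcs1 and Tm7sf2. Summed, the list stood at 5247 CPM on the injured and 4042 CPM on the contralateral side, and the other libraries lay between 3772 and 4559 CPM. Fdps, which makes farnesyl diphosphate (chromosome 3, 89093588 to 89101959), stood at 35.2 against 21.4 CPM at day 1, 18.2 against 17.5 CPM at day 3, 18.1 against 19.9 CPM at day 7, and 20.9 and 22 CPM without injury. It was high in the injured day 1 library only, and rose by 0.72 ± 0.12 (edgeR adjusted p = 0.0212).

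Of the 25 genes 11 rose, against 1.27% of all tested genes, and 0 fell. Among the 11 were Mvk (mevalonate kinase, 82.8 against 53.9 CPM), Sqle (squalene epoxidase, 377 against 269 CPM) and Cyp51 (205 against 152 CPM). For 4, Fdps, Stard4, Pmvk and Dhcr7, the side difference was larger than at days 3 and 7 by the test of that difference. Stard4, a cholesterol carrier, stood at 238 against 161 CPM at day 1, 92.9 against 112 CPM at day 3, 93.9 against 108 CPM at day 7, and 147 and 139 CPM without injury. Its injured level was the highest at day 1 and below the contralateral one later (difference 0.79, edgeR adjusted p = 0.0187). Hsd17b7 went the other way, from 129 against 85.3 CPM at day 1 to 254 against 92.7 CPM at day 7, and was not called at day 1. The sterol response element was searched as TCACNCCAC, and of 17 members with a RefSeq promoter 1, Hmgcs1, held it (5.88%, against 1.22% of all genes). The promoter of Mvk, the second highest of the list after Fdps, is shown for its 200 upstream bases at chr5:114444069-114444268, plus strand, and held no match.
Mvk: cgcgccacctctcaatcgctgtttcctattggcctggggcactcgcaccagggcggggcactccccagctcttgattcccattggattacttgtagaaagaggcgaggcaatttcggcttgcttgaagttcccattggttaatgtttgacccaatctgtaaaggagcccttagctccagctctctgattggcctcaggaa

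**Figure D3:**
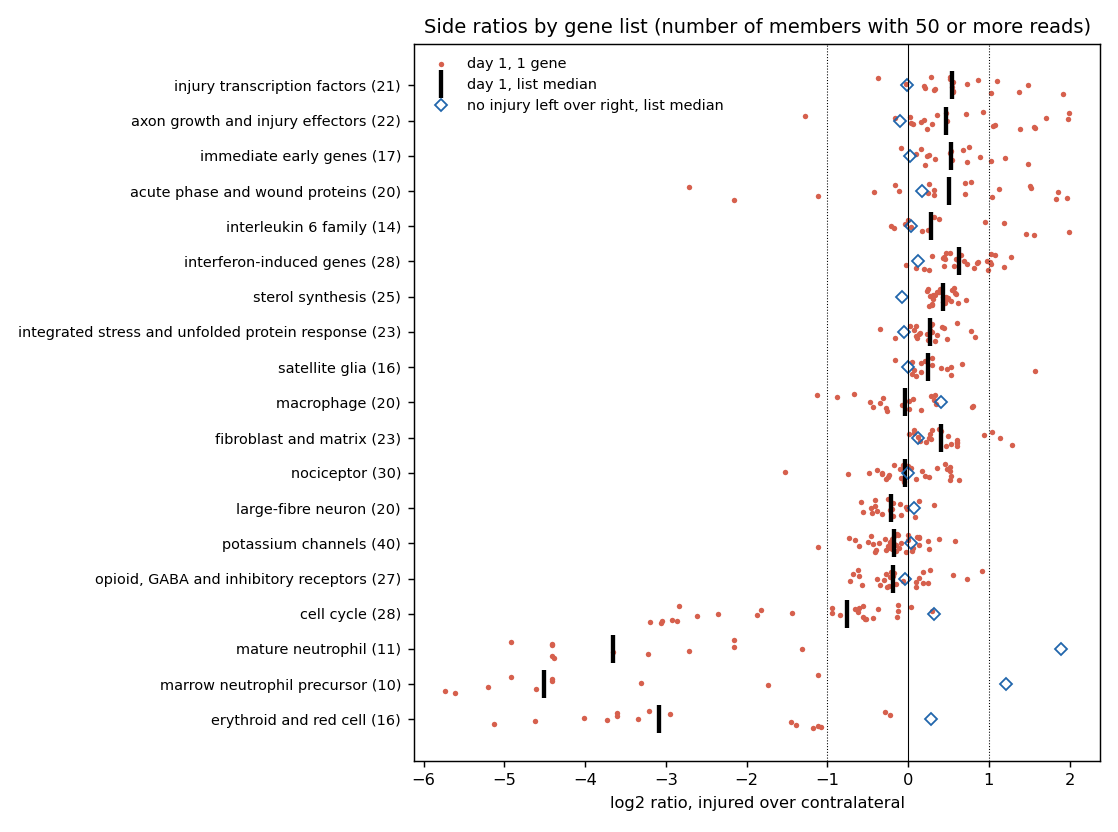
Each red point is a list member with at least 50 reads at its log2 ratio of injured over contralateral at day 1, the black bar is the list's median and the blue diamond the median of left over right without injury, with dotted lines at 2-fold. All 25 sterol genes lie right of 0, neuronal lists lie around 0, and neutrophil and red cell lists lie far left, with diamonds right of 0.

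The integrated stress and unfolded protein responses, which slow protein synthesis and expand folding capacity, had 21 of 23 genes above 0 with a median of 0.28, and 0.39 and 0.46 at days 3 and 7. Only Ppp1r15a, the phosphatase subunit that lifts the block on translation, at 85.2 against 56.0 CPM, and Xbp1, a factor of the endoplasmic reticulum, at 127 against 93.3 CPM, rose. Chac1, which degrades glutathione, was at 16.5 against 9.29 CPM, and Slc7a11, the cystine transporter, at 3.94 against 2.25 CPM, both without a call. The letters TGATGNAA, of composite ATF4 sites, were in 5 of 21 listed promoters (23.8%: Asns, Chac1, Herpud1, Slc7a11 and Vldlr) against 3.91% of all genes. Chac1 at chr2:119351042-119351241 on the plus strand held them 193 bases upstream of its start, and Slc7a11 at chr3:50443614-50443813 on the minus strand 66 and 47 bases upstream. Both are printed from RefSeq, GRCm38.p6, as the members with the highest ratios, with the matches on either strand in capitals.
Chac1: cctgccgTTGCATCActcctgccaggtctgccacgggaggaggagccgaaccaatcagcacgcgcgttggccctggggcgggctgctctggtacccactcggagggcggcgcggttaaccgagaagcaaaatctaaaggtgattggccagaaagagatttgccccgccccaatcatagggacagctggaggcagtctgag
Slc7a11: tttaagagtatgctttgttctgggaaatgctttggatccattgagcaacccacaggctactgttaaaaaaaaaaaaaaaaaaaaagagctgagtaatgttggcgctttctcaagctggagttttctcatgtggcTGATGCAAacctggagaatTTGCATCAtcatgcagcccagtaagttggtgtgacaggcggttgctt

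Satellite glia genes stood a little higher on the injured side. Gfap, an intermediate filament of reactive glia, was at 17.7 against 5.91 CPM at day 1, 11.3 against 3.62 CPM at day 3, 12.2 against 6.10 CPM at day 7, and 0.766 and 0.931 CPM without injury. All libraries of days 1, 3 and 7 lay above those labelled no injury, and the injured day 1 library above all others. Gfap rose by 1.59 ± 0.24 (edgeR adjusted p = 0.0132), and Kcnj10, the glial potassium channel, at 96.0 against 66.2 CPM by 0.54 ± 0.10. Of 16 satellite glia genes 15 stood above 0 with a median of 0.25, and 3 rose, against 1.27% of all tested genes. Repair Schwann cell genes had a median of 0.15. There Gfra1, the GDNF receptor, rose by 0.72 ± 0.14 at 354 against 216 CPM, and Bdnf, a nerve growth factor relative, by 0.82 ± 0.10 at 97.9 against 55.6 CPM. Gfra1 is also in the list of growth and injury effectors. Which cells held the reads of Gfra1 and Bdnf cannot be told from bulk libraries. None of 18 myelinating Schwann cell genes was called, and the median of 0.12 was smaller than the left-right difference of -0.41 without injury. Gldn, a nodal adhesion protein, stood at 44.3 against 19.7 CPM, and Egr2, the myelin transcription factor, at 18.7 against 8.07 CPM.

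Matrix genes had ratios above 0 beside a low level in the contralateral library. Col3a1, a fibrillar collagen, stood at 87.6 against 35.8 CPM at day 1, 300.2 against 75.3 CPM at day 3, 239.8 against 141 CPM at day 7, and 221 and 166 CPM without injury. Both day 1 libraries lay below the uninjured ones, and against the contralateral libraries of days 3 and 7 the ratio was -0.23. Postn, a matrix protein of scars, and Mmp2, a collagenase, at 27.3 against 12.3 and 20.6 against 10 CPM, also lay below the uninjured libraries on both sides, and against the contralateral libraries of days 3 and 7 their ratios were -0.32 and 0.20. All 23 fibroblast and matrix genes had a ratio above 0, with a median of 0.40 that became -0.15 against the contralateral libraries of days 3 and 7, and none of 24 was called. The summed level was 2999 and 2555 CPM at day 1 and between 2771 and 5496 CPM in the other libraries. Endothelial and mural genes had 20 of 21 members above 0, a median of 0.34 and no call among 22.

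Genes of sensory neurons differed little by side at day 1. Of 30 nociceptor genes 14 stood above 0 and 16 did not, with a median of -0.03 at day 1 against -0.81 and -0.47 at days 3 and 7, and none was called. Trpv1, the heat and capsaicin channel, stood at 223 against 144 CPM at day 1, 143 against 169 CPM at day 3, 165 against 142 CPM at day 7, and 162 and 183 CPM without injury. Its injured day 1 level was the highest of all libraries, without a call (edgeR adjusted p = 0.15). The itch receptor genes Mrgprb5 and Mrgpra3 had lower values, at 1.15 against 3.47 and 5.38 against 9.06 CPM; this family shares sequence and its reads may be split. Large-fibre neuron genes had a median of -0.21, with 3 of 20 above 0. There Etv1, a transcription factor of proprioceptors, fell by 0.55 (SE 0.11) at 82.5 against 122 CPM, and Kcns1, a potassium channel modifier, by 0.45 (SE 0.10) at 59.7 against 81.9 CPM (edgeR adjusted p = 0.0321 and 0.05, the latter just under the threshold before rounding). Pan-neuronal genes had a median of -0.09 and no call.

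Calls among receptor and channel genes at day 1 were mostly falls. Of tested genes, 1 of 40 potassium channel, 3 of 30 inhibitory receptor and 2 of 32 serotonin, nicotinic and purinergic receptor genes fell. Over all 17286 genes 0.694% were called lower. Of 40 potassium channel genes 10 stood above 0, with a median of -0.18 against -0.80 and -0.61 at days 3 and 7, and 1, Kcns1, fell. Among opioid, GABA and other inhibitory receptors the median of 27 genes was -0.19. The nociceptin receptor gene Oprl1 (20.7 against 30.7 CPM), the muscarinic receptor gene Chrm2 (17.4 against 26.6 CPM) and the adrenergic receptor gene Adra2c (12.9 against 20.8 CPM) fell by 0.56, 0.61 and 0.68. Npy1r, a receptor of neuropeptide Y, rose by 0.92 ± 0.13 at 81.6 against 43.3 CPM (edgeR adjusted p = 0.00935). In the list of serotonin, nicotinic and purinergic receptors Chrna6, a nicotinic subunit, fell by 0.78 (SE 0.14) at 43.7 against 75.5 CPM, and P2ry1, an ADP receptor, fell by 0.54. The contralateral day 1 library was the highest of all 8 for 8 of 40, 6 of 27 and 5 of 27 genes of these lists in turn. Kcns1, Adra2c and Chrna6 were among them. Chrna3 and Chrnb4, nicotinic subunits that lie side by side on chromosome 9, stood 2-fold higher. Chrna3 was at 22.8 against 9.53 CPM at day 1, 6.92 against 16.8 CPM at day 3, 8.91 against 9.34 CPM at day 7, and 9.29 and 13.2 CPM without injury. It was highest in the injured day 1 library and lowest in the injured day 3 library, and neither the side difference nor its difference from days 3 and 7 was called (edgeR adjusted p = 0.45 and 0.358).

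Whether day 1 differed from the later days was tested by the difference between its side difference and that of days 3 and 7, in the same edgeR fit. By this test 114 genes were higher (0.659%) and 128 lower (0.74%) at day 1 than later, against 1277 and 1111 at an unadjusted p under 0.05. These calls, too, rest on the pool labelled no injury: leaving it out gave 0 higher and 12 lower genes, leaving out day 3 gave 205 and 249, and leaving out day 7 gave 500 and 553. Without the contralateral day 1 library that comparison of side differences cannot be made. A refit there set injured day 1 against injured days 3 and 7 without the pool block, which is a different quantity. Of the 114 higher genes 112 stood lower on the injured side at both later days, and 77 lay within 0.25 of 0 at day 1. A ratio above 0 at day 1 and below 0 at both later days was found for 43.

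Several of these were neuronal. Tac1, which encodes substance P (chromosome 6, 7554879 to 7565834), stood at 336 against 235 CPM at day 1, 128 against 222 CPM at day 3, 147 against 204 CPM at day 7, and 249.5 and 266 CPM without injury. It was highest in the injured day 1 library and low on the injured side later (difference 1.14 ± 0.15, edgeR adjusted p = 0.0175). Htr3a, a serotonin-gated channel, stood at 204 against 208 CPM at day 1, and at 85.0 against 172 and 73.8 against 177 CPM at days 3 and 7. Its sides were alike within 0.03 on the log2 scale at day 1 and apart later (difference 1.1 ± 0.14, edgeR adjusted p = 0.0175). Calcb, a calcitonin gene-related peptide, Nmb (neuromedin B), the sodium channel gene Scn10a and the receptor gene Mrgprd had differences of 0.94, 0.71, 0.74 and 0.68, and 4 of 30 nociceptor genes, 6 of 40 potassium channel genes and 3 of 30 inhibitory receptor genes were called higher against 1 inhibitory receptor gene, Gabrg1, lower. Kcng4, Kcns3, Kcnt1, Kcnk1 and Kcnip2 were among the potassium channel genes. Rgs9, a G protein regulator, at 6.67 against 3.43 CPM, and Cysltr2, a leukotriene receptor of itch neurons, at 22.4 against 17.5 CPM, had differences of 1.76 ± 0.36 and 1.20 ± 0.24. Srd5a2, a steroid reductase (5.78 against 2.82 CPM, at most 1.71 CPM in the other libraries), had a difference of 2.79 ± 0.53.

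**Figure D4:**
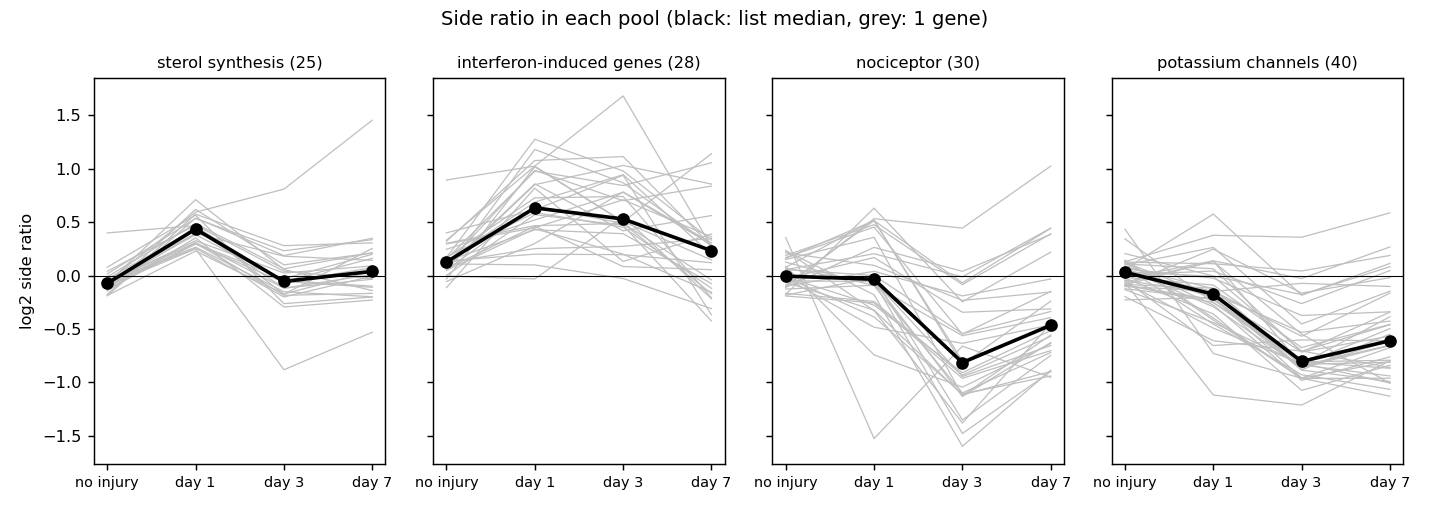
Each grey line is a gene and the black line the list median, with the log2 side ratio on the vertical axis for the pools labelled no injury (left over right) and of days 1, 3 and 7 (injured over contralateral). Sterol genes have their highest median, 0.44, at day 1, interferon-induced genes are at 0.63 there, and nociceptor and potassium channel genes are near 0 at day 1 and below it at days 3 and 7.

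Macrophage genes had side ratios around 0 at day 1 and low levels in that pool. Of 20 genes 10 stood above 0, with a median of -0.04 against 1.73 and 0.98 at days 3 and 7 and 0.40 without injury. Csf1r, the receptor of Csf1, was at 10.6 against 10.5 CPM at day 1, 45.5 against 14.6 CPM at day 3, 63.2 against 24.4 CPM at day 7, and 26.1 and 22.6 CPM without injury. Both day 1 libraries held the least, and its side difference was smaller than later by 1.49 (log2 -1.49, edgeR adjusted p = 0.0175). With C1qa, C1qc, Cx3cr1 and Gpnmb, 5 of 24 macrophage genes were called lower at day 1 than later, against 0.74% of all tested genes. None was called for the side difference itself. The summed level of the list was 180 and 223 CPM at day 1, 180 CPM on the contralateral side at day 3 and between 287 and 601 CPM in the other libraries. Of chemokines and cytokines 6 of 9 stood above 0 with a median of 0.40 and no call among 21 tested. Ccl2, which attracts monocytes, stood at 6.33 against 2.77 CPM at day 1 and 11 against 2 CPM at day 3.

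Predicted genes left aside, the lowest ratios at day 1 were mostly those of blood and marrow cells. Elane, the elastase of neutrophil precursors (chromosome 10, 79886247 to 79888215), had 1 read on the injured and 162 on the contralateral side, or 0.0498 and 7.6 CPM. The other 6 libraries lay between 0.19 and 0.48 CPM, so the contralateral library was far above and the injured one below all of them. The log2 ratio was -5.74 with a read-split interval of -12.6 to -4.76. Mpo, myeloperoxidase, stood at 0.399 against 24.1 CPM (8 and 513 reads) and at most 1.82 CPM elsewhere. Of 10 genes of marrow neutrophil precursors all 10 were 2-fold lower with a median of -4.51, and all 10 were highest in the contralateral day 1 library, where the list summed to 245 CPM against 21.2 CPM. Elane, Prtn3, Ctsg and Ms4a3 fell (edgeR adjusted p = 0.00192, 0.00192, 0.00455 and 0.00935). The first 3 code for granule proteases, and Ctsg and Ctse, a cathepsin of blood cells, rest on 2 and 3 injured-side reads. With those reads their log2 ratios were -5.20 (read-split interval -9.20 to -4.26) and -5.21 (-8.20 to -4.34).

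Mature neutrophil genes were spread over more libraries. S100a9, a calcium-binding protein of neutrophils, stood at 9.81 against 211 CPM at day 1, 30.6 against 18.5 CPM at day 3, 27.6 against 32.1 CPM at day 7, and 111 and 28.9 CPM without injury. Its highest level was in the contralateral day 1 library, followed by the left library labelled no injury, and its lowest in the injured day 1 library. Ltf, lactoferrin, stood at 1.59 against 35.7 CPM, with 32.9 CPM in the left library without injury. All 11 mature neutrophil genes were 2-fold lower at day 1 with a median of -3.66, while left over right without injury had a median of 1.90. Of the 11, 10 were highest in the contralateral day 1 library and 7 lowest in the injured one, and none of 14 was called (edgeR).

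Red cell genes were lower too, but the injured day 1 library was the lowest of all 8 for only 3 of 16, and their median without injury was 0.29. Slc4a1, the anion exchanger of red cells, stood at 1.1 against 41.7 CPM and at most 10.5 CPM elsewhere, and the globin gene Hbb-bs at 257 against 557 CPM, with 222 to 563 CPM in the other libraries. The globin of the contralateral library was thus no higher than at day 3 on the injured side, whereas Slc4a1 was higher than in any other library. Of 16 erythroid genes 14 were 2-fold lower with a median of -3.08. Of 18 tested 6 fell, against 0.694% of all tested genes, among them Car1, Ermap, Rhd, Rhag and Gata1. The contralateral day 1 library was the highest of all 8 for these genes other than Car1. Against the contralateral libraries of days 3 and 7 the list's median was -0.27, and the ratio turned for Ermap (0.34) and Gata1 (0.57). The globin genes Hba-a1, Hba-a2, Hbb-bs and Hbb-bt are near copies and may share reads. Among megakaryocyte, mast cell and eosinophil genes 5 of 10 were 2-fold lower. Epx and Ear6 of eosinophils and Gp9 of platelets had no read on the injured side and 62, 54 and 35 on the contralateral side, which makes the latter at least 19.5-fold, 17-fold and 11-fold higher against a floor of 3 reads. Bone and cartilage genes had 3 of 7 members 2-fold lower, with Mmp13 and Ibsp called, and of 4 lymphocyte genes with enough reads 1, Cd79b, fell.

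**Figure D5:**
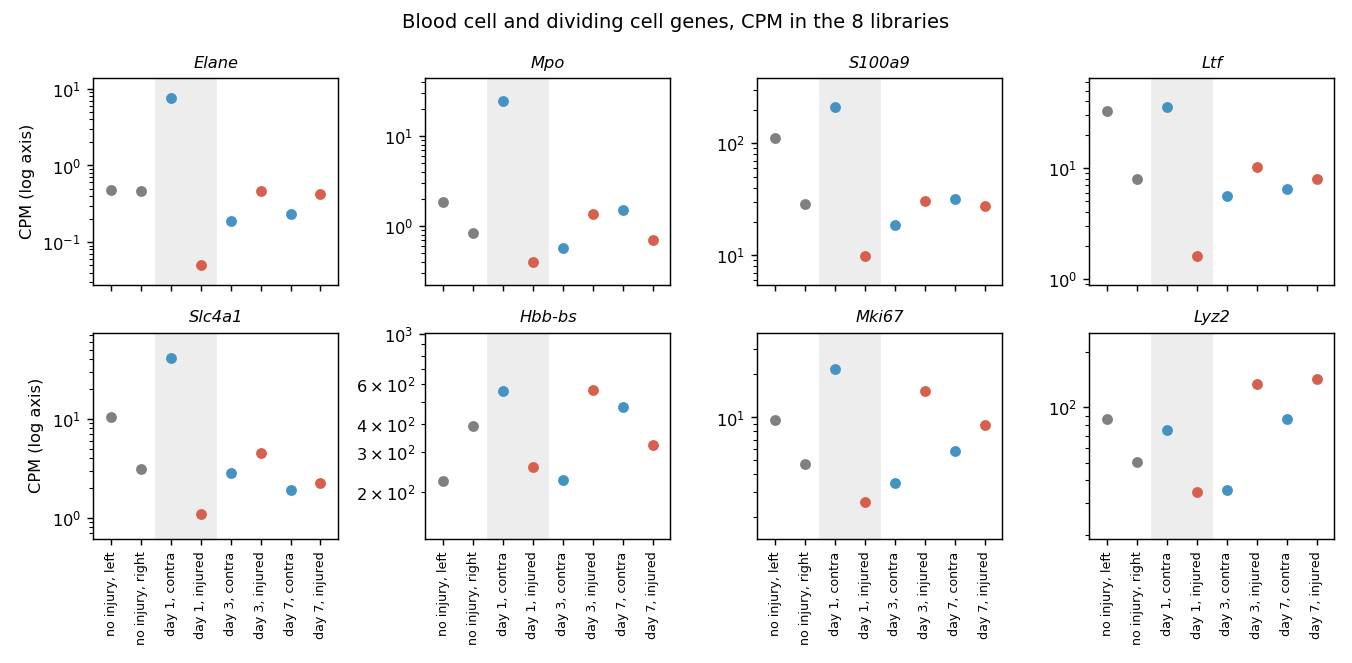
Each panel gives the CPM of a gene on a log axis in the 8 libraries, grey for no injury, blue for the contralateral and red for the injured side, with day 1 shaded. Elane, Mpo, S100a9, Ltf, Slc4a1 and Mki67 are highest in the contralateral day 1 library and lowest in the injured day 1 library, while Hbb-bs and Lyz2 are as high or higher on the injured side at day 3.

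Cell cycle genes had ratios below 0, with low levels in the injured and high levels in the contralateral library. Mki67, the proliferation marker, stood at 2.54 against 21.9 CPM at day 1, 15.4 against 3.47 CPM at day 3, 8.86 against 5.82 CPM at day 7, and 9.62 and 4.75 CPM without injury. The contralateral day 1 library was the highest of all and the injured one the lowest. Of 28 genes 11 were 2-fold lower and 2 stood above 0, with a median of -0.75 against 1.02 and 0.57 at days 3 and 7. The injured library was the lowest of all 8 for 17 and the contralateral one the highest for 9. Of 30 tested genes 3, Ccnb2, Rrm2 and Kif11, fell, against 0.694% of all tested genes. Lower at day 1 than at days 3 and 7 were 10 of the 30, against 0.74% of all. Mcm6, a helicase of DNA replication, was at 10.7 against 16.2 CPM at day 1 and 25.1 against 12.6 CPM at day 3 (difference -1.44, edgeR adjusted p = 0.0192). What part the cells behind the neutrophil and red cell genes had in these values was not tested.

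Of the 128 genes whose side difference was lower at day 1 than later, 90 stood below 0 at day 1 and above 0 at both later days, and 32 stood above 0 at all 3 days but less at day 1. The contralateral day 1 library was the highest of all 8 for 40 of the 128 and the injured one the lowest for 61. Among these 128, or 0.74% of all tested genes, were 10 of 30 tested cell cycle genes and 5 of 24 macrophage genes. With them were 4 of 18 red cell and 3 of 14 neutrophil precursor genes, and at most 1 of any other list. Slc7a5, an amino acid transporter, was at 85.6 against 81.3 CPM at day 1 and 134 against 79.2 CPM at day 7 (difference -0.64, edgeR adjusted p = 0.0386). Gabrg1, a GABA receptor subunit, was at 38.9 against 47.9 CPM at day 1 and 116 against 62.2 CPM at day 7 (difference -1.12, edgeR adjusted p = 0.0175).

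The other lists were those of YAP and mechanical response genes (median 0.20, 1 of 11 2-fold higher), skeletal muscle (median 0.26, with -2.52 between the libraries without injury) and mitochondrially encoded genes (median 0.08, all 6 between 0.00251 and 0.128). No member of these 3 lists was called. Skeletal muscle genes summed to 110 and 124 CPM at day 1, and Tnnc1, a muscle troponin at 2.79 against 0.892 CPM, was the member 2-fold higher.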

How the data were processed

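RNA from dorsal root ganglia was sequenced in 8 libraries of 4 mouse pools. The authors deposited whole-number read counts per gene, used as deposited; the submitters' processing notes name GRCm38 and the tools STAR 2.5.4a, featureCounts 1.6.3, cutadapt 1.16 and DESeq2. Not given in the sources used here are the strand setting, the annotation release and the treatment of reads that fit several genes. Names and positions came from GENCODE M21, which matched 53706 of 53801 IDs. Promoters came from a RefSeq table (GRCm38.p6). Totals ran from 20488115 to 21652688 reads, and intervals and zero limits cover counting error only.

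Side ratios are differences of log2 CPM (TMM factors, prior count 2). They have no test, and genes needed 50 reads or more in the higher library and were counted beyond 2-fold. Tests came from edgeR 4.0.16 under R 4.3.3 (robust quasi-likelihood, filterByExpr min.count 10, Benjamini-Hochberg at 0.05 over all 17286 genes), fitted over all 8 libraries with terms for the pool, for injured at day 1 and for injured at days 3 and 7. Its p-values measure only the spread between these pools, including any change between days 3 and 7. The pool is a block because both sides came from the same mice; within a pool, deviations of both sides from their group means had correlations of 0.239 (day 1), -0.0216 (day 3) and 0.331 (day 7). In the edgeR values a day 1 side difference is injured minus contralateral, and the difference from later days is day 1 minus days 3 and 7.

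The comparison and its 36 gene lists (713 genes, 711 found) were chosen with earlier results of these data known. Genes were named by rule: the highest and lowest 15 ratios, the lowest 15 not put down to the contralateral library, the highest and lowest 10 among genes with at least 1000 reads, up to 4 members of each list and any past 2-fold, the 6 largest calls each way of both tests, and Atf3, Sprr1a, Gal, Npy, Csf1, Xist and Kdm5d. Predicted genes were not named. Other list members in the text were chosen after their values were seen. Each list is described by counts and its median, with no set test. Scripts were tested on simulated counts. Alternatives were other normalisations, read minimums, prior counts, references and filters, DESeq2 1.42.0, limma-voom (limma 3.58.1), no pool block, and each pool left out.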

Additional observations from a re-analysis of the deposited data

Results flagged for a closer look

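The side difference at day 1 differed from that at days 3 and 7, by edgeR's quasi-likelihood test of that difference, for 114 genes in the higher and 128 in the lower direction. The 12 genes with the largest log2 differences among these calls, 6 each way and predicted genes left out, were the following. Higher at day 1 were Cfd (3.12), Srd5a2 (2.79), Rgs9 (1.76), Cysltr2 (1.20), Tac1 (1.14) and Htr3a (1.1). Tac1 has 6747 and 5012 reads at day 1 and Htr3a 4101 and 4428, while Cfd rests on 28 and 5 reads at day 1. Lower at day 1 were Cldn13 (-9.46), Kif18b (-9.13), Elane (-8.14), Ctse (-6.69), Ctsg (-6.44) and Ly6g (-6.23). Of these Cldn13 and Kif18b had no read on the injured side at day 1 and 41 and 24 on the contralateral side, so that their fitted values depend on the prior count and are no bounds; against a floor of 3 reads the contralateral library stood at least 12.9-fold and 7.54-fold higher. Elane, Ly6g, Ctsg and Ctse had 1, 1, 2 and 3 reads on the injured side. For Elane, Ctsg, Ctse, Cldn13 and Kif18b the contralateral day 1 library held more than each of the 7 others. Ly6g, a surface protein of neutrophils, was at 0.704 CPM on the contralateral side at both days 1 and 7 while the injured side held 2.91 CPM at day 3 and 4.69 CPM at day 7. No gene could be screened for a deviant library within a group, since each group has 1 library.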

How the results depend on the processing

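The 201 genes lower by 2-fold depended most on the reference and the read minimum. With the contralateral libraries of days 3 and 7 as the reference 184 genes were higher and 99 lower, and 70 and 48 of the original genes stayed 2-fold apart (the latter count was added after seeing the data). With at least 200 reads 68 were higher and 43 lower, 10 of them put down to a high contralateral library; with at least 10 reads these were 315, 547 and 210. DESeq2's size factors, total counts, TMM without the contralateral-high genes, a prior count of 0.5 and subtraction of the ratio without injury gave 101 to 158 and 201 to 275. Leaving out a day 1 library leaves no ratio.

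Side calls were 92 higher and 43 lower by DESeq2, 201 and 81 by limma-voom, and 493 and 347 with no filter. Of the 220 higher and 120 lower edgeR calls, DESeq2 shared 76 and 26, and limma-voom 191 and 80. Side calls of named genes were lost for 33 genes by DESeq2 and 15 by limma-voom. For day 1 against days 3 and 7 the calls were 465 and 447 with no filter, 44 and 35 by limma-voom, and 82 and 86 by DESeq2. There DESeq2 shared 47 of the 114 higher and 43 of the 128 lower edgeR calls, and limma-voom 44 and 35. Leaving out 1 other pool in turn, which leaves 1 residual degree of freedom, gave 28 to 646 higher and 22 to 369 lower, and 0 to 500 and 12 to 553 for the comparison of days; the lowest values came without the pool labelled no injury. Without the contralateral day 1 library, a setting added after seeing the data, they were 656 and 341, and 1604 and 1120. Without the pool block 201 were higher and 143 lower, and 164 and 161 for the comparison of days; 18 and 5 calls of named genes were lost. The causes were not tested.

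With the contralateral libraries of days 3 and 7 as the reference the ratio changed sign for Col3a1 (-0.233), Ecel1 (-1.22), Gal (-1.17), Postn (-0.315), Sprr1a (-3.78), Ermap (0.342), Gata1 (0.574), Hp (1.17), Lcn2 (1.05) and the median of megakaryocyte, mast cell and eosinophil genes (0.252). With the ratio without injury subtracted Fosl1 was at -0.984 and Tnnc1 at -1.11. In the edgeR fit without the contralateral day 1 library Nts was at -1.18, Ecel1 at -1.23 and Ermap at 0.316.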

Other observations

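Further genes with large or well-counted ratios belonged to no list. Among genes with at least 1000 reads, Sema6a, an axon guidance protein, stood at 94.4 CPM on the injured and 34.0 CPM on the contralateral side and rose by 1.48 ± 0.18, Angptl2, a secreted angiopoietin relative, at 58.6 against 24.6 CPM rose by 1.26 ± 0.12, and Mapkbp1, a kinase scaffold, at 58.9 against 26.4 CPM rose by 1.17 ± 0.11 (edgeR adjusted p = 0.0167, 0.00204 and 0.00192). Each was higher on the injured side at days 1, 3 and 7. Iigp1, an interferon-induced GTPase, stood at 20.7 against 6.81 CPM at day 1 and at most 11.1 CPM elsewhere, without a call (edgeR adjusted p = 0.0992). Abra, a regulator of actin signalling, stood at 3.83 against 1.22 CPM, with at most 0.884 CPM in the other libraries.

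Other genes differed between pools. Serpina3g, a protease inhibitor, stood at 167 against 140.3 CPM at day 1, and its injured side was lower than the contralateral one at days 3 and 7, at 62.2 against 101 and 60.2 against 104 CPM (difference 0.98, edgeR adjusted p = 0.0141). The metallothionein gene Mt2 stood at 94.9 against 55.3 CPM at day 1 and at 10.1 and 8.89 CPM without injury, with 36.0 to 81.3 CPM at days 3 and 7. Ptgds, the prostaglandin D synthase of the meninges, had the lower value on the injured side, 155 against 274 CPM, and ranged from 134 to 373 CPM in the other libraries. Cfd, the adipocyte protein adipsin, had 28 and 5 reads at day 1, or 1.40 and 0.235 CPM, against 2.63 to 5.02 CPM in the other libraries.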
